A study of Saccharomyces cerevisiae with 55 samples.

Results

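The K5R/K8R/K16R mutant of budding yeast (Saccharomyces cerevisiae) carries histone H4 with lysines 5, 8 and 16 of its N-terminal tail replaced by arginine, so that lysine 12 is the one intact acetylatable lysine of the 4 studied. It was represented by 3 of the 55 arrays of the series, chosen by the title that names exactly these substitutions. Each array was a 2-colour hybridisation of total RNA with the parental strain, whose H4 is intact, in channel 1 and the mutant in channel 2. The 3 arrays held 2 mutant strains: MDY483 against the parental strain MDY470 on 1 array, and MDY466 against the parental strain MDY453 on 2 arrays, one of which has the suffix (s) in its title. The meaning of the suffixes in the titles is not stated. The series covers all 15 combinations of arginine substitutions at the 4 lysines. The mutants set against K5R/K8R/K16R below are K5R/K12R/K16R (4 arrays), K8R/K12R/K16R (4 arrays), K5R/K8R/K12R (5 arrays), K5R/K8R (4 arrays) and K16R (3 arrays), each hybridised against MDY453 or MDY470, and K5R/K12R/K16R against MDY453 alone. The K16R strain MDY458 was labelled as hybridised against MDY453 on 1 array and against MDY470 on another. The labels state neither the mating type, further alleles and growth conditions nor how the H4 genes were replaced or whether the 2 arrays of MDY466 came from separate cultures. The p-values below set each ratio against a spread between arrays and strains that is shared over the mutants of the series. That spread may therefore be partly technical, and it is not the spread of the 3 arrays of K5R/K8R/K16R alone.

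Lysines 5, 8, 12 and 16 of H4 are acetylated by the NuA4 complex, whose catalytic subunit is Esa1, and lysine 16 also by the SAS complex with its catalytic subunit Sas2. Arginine has the same charge as unacetylated lysine and is not acetylated. At the silent mating cassettes HML and HMR and near chromosome ends, Sir2 removes the acetyl group of lysine 16, and the Sir3 protein binds the deacetylated tail to form silent chromatin. In yeast the mating type decides which genes a haploid cell uses: a cells express the a-specific genes, alpha cells the alpha-specific genes, and both express the haploid-specific genes of the pheromone pathway, which are repressed in cells holding both kinds of mating information.

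Values are log2 ratios, likely of mutant over parental, after each array was centred on its median. No source used here gives the direction or the dyes. Mutant over parental is the usual form where the parental strain is the common reference, and a positive value then means more RNA in the mutant. Where the values of the 3 arrays are listed, MDY483 comes before the 2 arrays of MDY466, of which the array marked (s) precedes the other. Over the 5540 genes the SD of the log2 ratios was 0.368, 0.365 and 0.365 on the 3 arrays, and 125, 112 and 107 genes were beyond 1 in size. MDY483 correlated with the arrays of MDY466 at r = 0.899 and 0.851, and the arrays of MDY466 with each other at 0.876. These correlations are across genes, which are not independent replicates, and arrays of the same mutant had a median of 0.808 over 73 pairs in the series. Of the 5540 genes 4027 (72.7%) had the same sign on all 3 arrays. Gene ratios were tested with limma, with the spread estimated over all 54 samples of the series, the mutant strain as a random block and a Benjamini-Hochberg threshold of 0.05.

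Changes against the parental strain were widespread and mostly small. Of 5540 genes 2225 passed the threshold (40.2%), 1064 higher (19.2%) and 1161 lower (21%) in K5R/K8R/K16R. At least 2-fold differences were fewer, with 32 genes higher (0.578%) and 74 lower (1.34%). The median standard error of a gene's ratio was 0.0838 on the log2 scale, and the smallest called ratio had a size of 0.13. Without the array of MDY483 the number of called genes was 1419, and within the 2 arrays against MDY453 it was 850. The single array against MDY470, whose spread is assumed to be that of the other mutants, gave 1631.

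The lowest genes belonged to the mating pathways or lay near chromosome ends. Among the 12 lowest ratios, 7 were a-specific or haploid-specific genes and the other 5 lay within 20 kb of a chromosome end. COS10, of a family of membrane proteins that act in endosomal sorting, had ratios of -3.64, -3.55 and -2.78 and was 10.2-fold lower (-3.34 ± 0.28, SE; adjusted p = 1.45e-13). FUS3, the MAP kinase of the pheromone response, had -2.76, -3.29 and -3.14 (-3.04 ± 0.16). GPA1, the alpha subunit of the G protein coupled to the pheromone receptors, had -2.76, -3.16 and -2.95 and was 7.68-fold lower (-2.94 ± 0.10, adjusted p = 5.19e-28). All 3 arrays were far below 0 for each of these genes. CSS3, within 20 kb of a chromosome end, had -2.76, -3.27 and -2.63. AIF1, the yeast relative of mammalian apoptosis-inducing factor, had -2.84, -2.68 and -2.68, a narrower range than that of COS10. SRY1, a dehydratase of 3-hydroxyaspartate, had -2.65, -2.89 and -2.13.

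The highest genes were less far from 0 than the lowest. HPF1, a cell wall mannoprotein, had ratios of 1.74, 2.05 and 1.86 and was 3.67-fold higher (1.88 ± 0.13, adjusted p = 3.51e-16). HSP12, a membrane-associated small heat shock protein, had 1.95, 2.08 and 1.56 and was 3.65-fold higher. INO1, the inositol phosphate synthase, had 1.53, 1.58 and 1.51, nearly the same value on every array. RTC3 was at 1.54 ± 0.17, PUT1, the proline oxidase, had 1.30, 1.88 and 1.37, and the stress gene DDR2 had 1.58, 1.56 and 1.20. The plasma membrane transporter gene QDR2 (1.32 ± 0.12), the reductase gene GRE2 (1.31 ± 0.10) and the meiotic regulator RIM4 (1.31 ± 0.12) came next, together with TPS2 (1.27 ± 0.11) and TSL1 (1.23 ± 0.15) of trehalose synthesis. CIS1 also passed but its arrays were far apart, at 1.06, 2.37 and 0.63 (1.34 ± 0.28, adjusted p = 0.00015). Of the 12 highest genes 5 belong to the stress, trehalose or chaperone lists and 0 lay within 20 kb of a chromosome end.

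**Figure D1:**
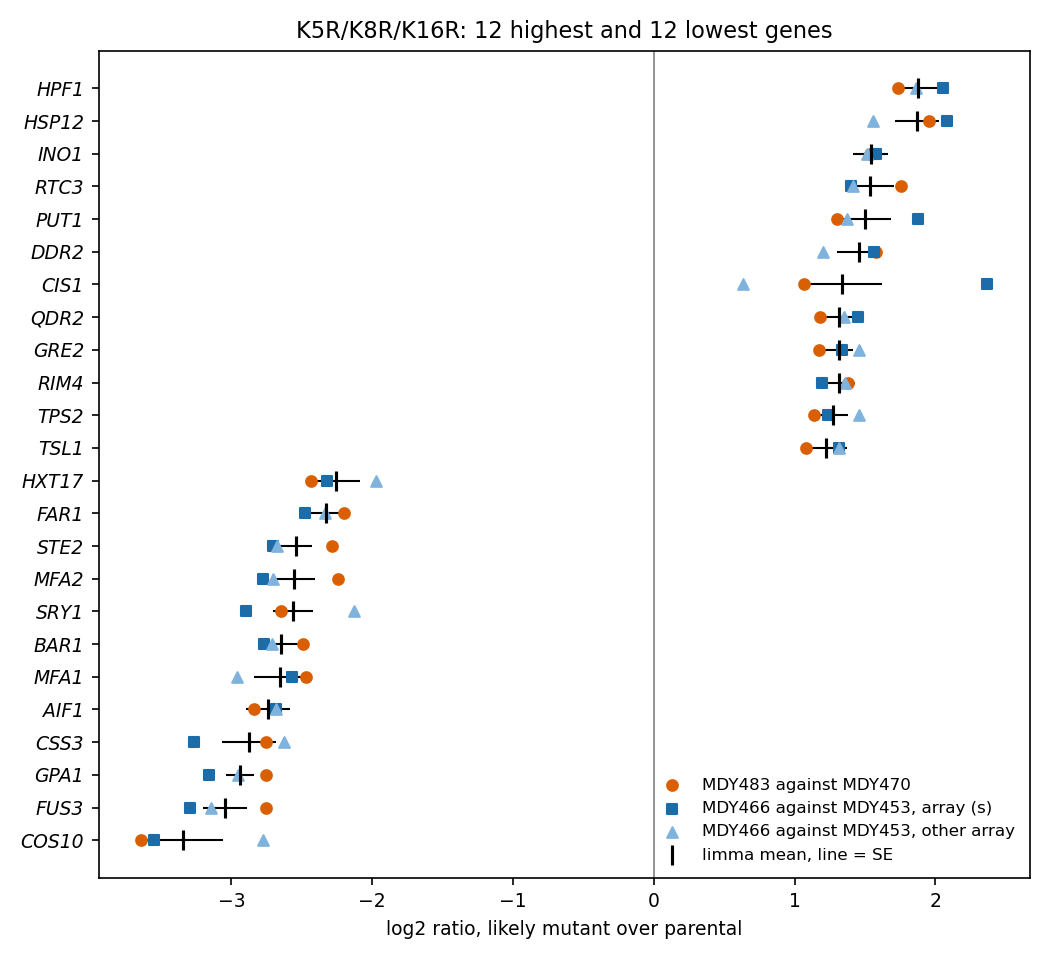
Log2 ratio (x axis, likely mutant over parental) of the 12 highest and 12 lowest genes with the same sign on all 3 arrays, 1 marker per array, with the limma mean (tick) and its standard error (line). The lowest means run from -3.34 (COS10) to -2.26 (HXT17) and the highest from 1.23 (TSL1) to 1.88 (HPF1), with CIS1 spread most widely.

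All 7 measured a-specific genes fell in K5R/K8R/K16R, with a list median of -2.54 against -0.0016 over all genes. MFA1 and MFA2, which encode the a-factor pheromone, had ratios of -2.47, -2.57 and -2.96 and of -2.24, -2.78 and -2.70. STE2, the receptor for alpha-factor, had -2.29, -2.71 and -2.68 and was 5.82-fold lower (-2.54 ± 0.11). The alpha-factor protease BAR1 had -2.49, -2.77 and -2.71. The other 3 were lower by smaller amounts: STE6, which exports a-factor, fell by 2.05 ± 0.14, the agglutinin subunit AGA2 by 1.80 ± 0.14 and ASG7, a regulator of pheromone signalling, by 1.76 ± 0.12. MDY483 had the value closest to 0 for MFA1, MFA2, STE2, BAR1, STE6 and AGA2, and the differences between strains were small beside the ratios. In bulk RNA, fewer cells expressing these genes and less RNA per cell cannot be told apart.

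Genes that haploid cells of both mating types use fell in part. Of the 34 genes on the haploid and pheromone list 19 fell and 3 rose. FAR1, an inhibitor of the cell cycle kinase during mating, had -2.20, -2.48 and -2.33 and was 5.02-fold lower. NEJ1, which haploid cells use for DNA end joining, had -2.04, -2.25 and -1.71, and RME1, a repressor of meiosis, had -1.72, -1.48 and -1.82. The other members named here were chosen after their values were seen. The remaining G protein subunits STE4 (-1.44 ± 0.11) and STE18 (-0.92 ± 0.15), the scaffold STE5 (-0.81 ± 0.08), the G protein regulator SST2 (-1.76 ± 0.12) and the fusion gene FUS1 (-1.41 ± 0.12) fell. Kinases of the pathway that also act outside mating were not called lower: STE20 was at 0.20, STE7 at 0.19, STE11 at 0.07 and KSS1 at 0.01, and STE20 passed as higher.

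Genes of alpha cells moved in both directions and by less. Of 5 alpha-specific genes 3 rose and 2 fell. MF(ALPHA)1, the main alpha-factor gene, had ratios of 0.82, 0.69 and 0.65 and rose 1.66-fold (0.73 ± 0.09, adjusted p = 7.44e-09). MF(ALPHA)2 (0.22, 0.24 and 0.17) and the agglutinin gene SAG1 (0.34, 0.21 and 0.37) were slightly higher. STE3, the a-factor receptor, was lower at -0.48, -0.53 and -0.03, and its call was not met without MDY483 (-0.28, adjusted p = 0.235) or without the array marked (s) (-0.26, adjusted p = 0.196). AFB1, which encodes a-factor barrier, had -1.66, -1.69 and -1.40 and was 3.01-fold lower.

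Of the probes for the mating cassettes most did not pass. HMLALPHA1, the alpha1 gene of the HML cassette, was the 1 of 6 that passed, with 0.55, 0.35 and 0.20 (0.38 ± 0.14, adjusted p = 0.0317), and its call was not met without MDY483 (0.28, adjusted p = 0.284). MATALPHA2 (0.36, 0.25 and 0.12) and HMLALPHA2 (0.35, 0.22 and 0.13) were above 0 on every array without passing, HMRA1 was at -0.29, -0.27 and -0.55, and HMRA2 at 0.14, 0.09 and 0.00. MATALPHA1 stood at 0.52, -2.18 and 0.70, so the array marked (s) went against the other arrays, and its mean had no settled direction: it was 0.61 without that array (adjusted p = 0.0135) and -0.83 without the other array of MDY466 (adjusted p = 0.0181). The cassettes share sequence with the MAT locus, so these probes can read RNA from more than 1 locus.

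**Figure D2:**
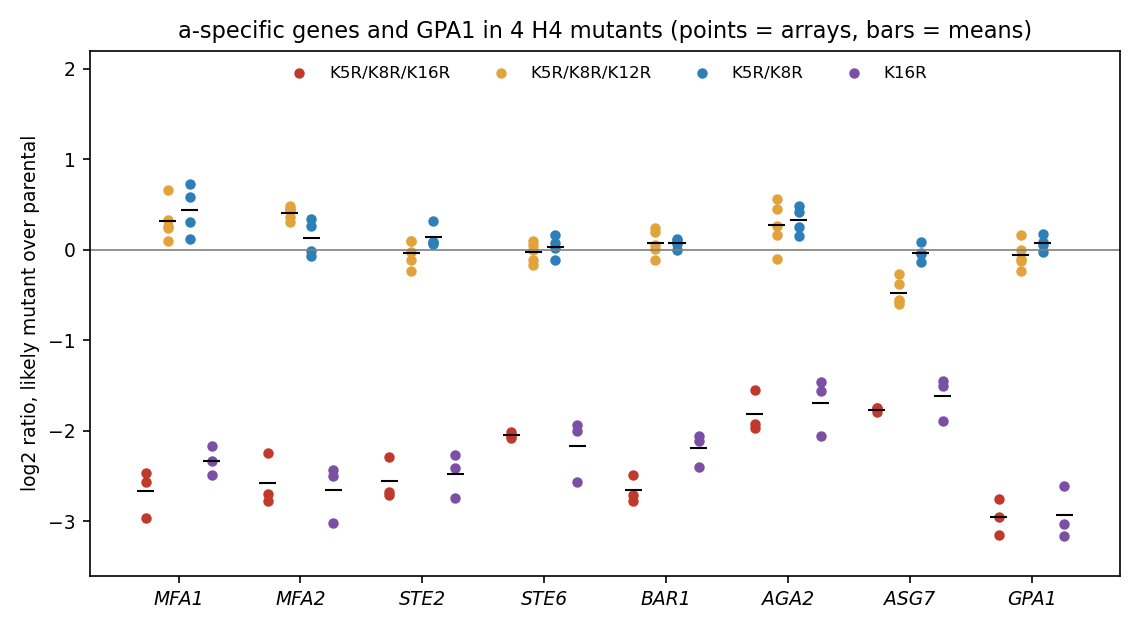
Log2 ratio (y axis, likely mutant over parental) of the 7 a-specific genes and GPA1 on each array (points), with group means (bars), in K5R/K8R/K16R, K5R/K8R/K12R, K5R/K8R and K16R. The K5R/K8R/K16R arrays lie between -3.16 (GPA1) and -1.55 (AGA2), below all arrays of K5R/K8R/K12R and K5R/K8R, whose lowest value is -0.60 (ASG7).

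Genes of the silencing machinery and of H4 acetylation that passed had changed by less than 2-fold. Of 12 silencing genes 5 fell and 1 rose. ORC1, an origin recognition subunit that also acts at the silent cassettes, had -0.51, -0.45 and -0.63 (-0.53 ± 0.07). The SAS complex subunit SAS5 fell by 0.42 ± 0.07 and NPT1, which makes NAD precursors, by 0.31 ± 0.09, while the silencer-binding factor ABF1 was at 0.13, 0.22 and 0.33. SIR2 had 0.05, 0.41 and 0.39 and did not pass (adjusted p = 0.136). Of 31 genes for H4 acetylation, deacetylation and its readers 6 rose and 7 fell, shares near those over all genes. BDF2, a bromodomain protein, had 0.92, 0.84 and 0.86 and was 1.84-fold higher (0.88 ± 0.06, adjusted p = 2.07e-16). Its paralogue BDF1, which binds acetylated H4, was at 0.26, 0.40 and 0.48 and the acetyltransferase gene ELP3 at -0.40, -0.35 and -0.46. EPL1, a NuA4 subunit added here after its values were seen, passed through MDY483 alone, at -1.70, 0.02 and -0.01.

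Of 11 histone genes 6 rose and 0 fell, in a design in which H4 itself was altered. The H3 genes HHT2 (0.69, 0.73 and 0.60) and HHT1 (0.65, 0.48 and 0.46) were highest, at 1.60-fold and 1.45-fold. HTZ1, the H2A variant (0.38, 0.46 and 0.35), the linker histone gene HHO1 (0.41, 0.29 and 0.41), the H2B gene HTB1 (0.51, 0.42 and 0.29) and the H2A gene HTA1 (0.43, 0.23 and 0.21) also passed. The H4 genes were close to 0, with HHF1 at -0.01, 0.04 and 0.03 and HHF2 at 0.20, -0.01 and 0.03. HTB2 (0.14), HTA2 (0.13) and the centromeric variant CSE4 (-0.05) did not pass. Probes of histone gene pairs can cross-hybridise, and the labels do not say which H4 gene the strains carry.

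Of 237 genes within 20 kb of a chromosome end 111 fell and 44 rose, with a median of -0.22 against -0.0016 over all genes. The median was -0.21, -0.20 and -0.20 on the 3 arrays. By distance from the outermost annotated gene end, the share of lower genes was 42.2% of the 64 genes nearer than 5 kb, 52.5% of the 59 from 5 to 10 kb, 46.5% of the 114 from 10 to 20 kb, 34.1% of the 264 from 20 to 40 kb, and 19.0% of the 5034 farther in. Higher genes had no such order, with 17.2%, 27.1%, 14.9%, 13.3% and 19.6% in the same bins. Of the 74 genes lower by at least 2-fold 35 lay within 20 kb of an end, against 3 of the 32 higher ones. Over all genes 237 of 5540 lay there, a smaller share than in either group. At least 1 gene fell at 31 of the 32 ends and more genes fell than rose at 25 of them. Each end held 5 to 12 measured genes, and over all genes 21% fell and 19.2% rose. Most ends would therefore hold at least 1 lower gene wherever its genes lay, and no pattern is read from the count of 31. By number, the right end of chromosome III had the most lower genes, 7 of 9. The left end of chromosome XIII was the exception, with 0 of 8 genes lower and 4 higher by limma.

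Neighbouring genes at 1 end could differ in direction. From the outside in, the right end of chromosome XIV had PAU6 at 0.41, COS10 at -3.34, AIF1 at -2.74, MAN2 at 0.17, HXT17 at -2.26, YNR071C at -0.92 and PDR18 at -0.79, and all but MAN2 passed. The left end of chromosome XI had PAU16 at 0.35, YKL222C at -1.72, MCH2 at -1.41, FRE2 at -0.26, COS9 at -1.46 and SRY1 at -2.56, of which FRE2 did not pass. The left end of chromosome XV had AAD15 at -0.34, BDS1 at -0.93, YOL163W at -0.77, YOL162W at -0.56, PAU20 at 0.53, CSS3 at -2.88 and ENB1 at -1.36, of which AAD15 did not pass. These ends hold the 4 lowest end genes, COS10, CSS3, AIF1 and SRY1, and were picked after their values were seen. The genes that rose there were the seripauperins PAU6, PAU16 and PAU20, outermost at the first pair of ends and farther in on chromosome XV. The order of genes comes from the R64 reference gene table, and coordinates are not printed because no source used here names the build of the array design.

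**Figure D3:**
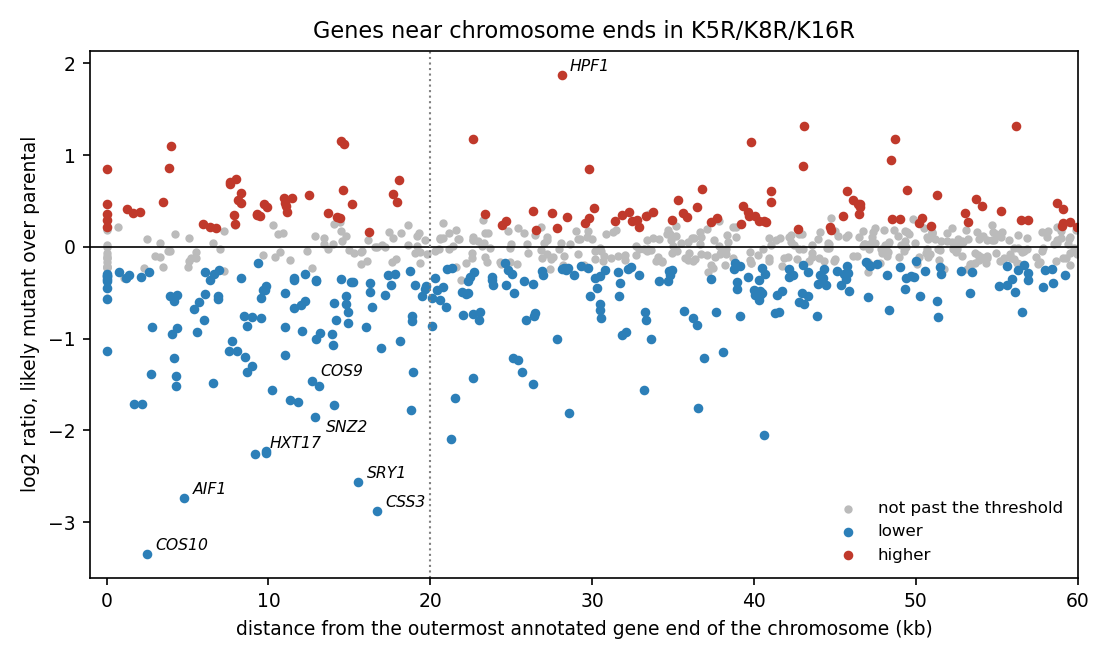
Log2 ratio of K5R/K8R/K16R (y axis, likely mutant over parental) for each gene within 60 kb of the outermost annotated gene end of its chromosome (x axis, kb), lower and higher genes past the threshold in colour, with the 20 kb limit as a dotted line. Lower genes reach -3.34 (COS10) inside the limit, where 111 of 237 genes were lower and 44 higher.

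Gene families at the chromosome ends split. Seripauperins are small proteins of the cell wall whose genes lie mostly near chromosome ends, and of 23 such genes 22 rose and 0 fell, with a median of 0.54. PAU15 had 1.01, 0.87 and 0.66, PAU19 0.99, 0.77 and 0.76, PAU23 0.89, 0.76 and 0.78, and PAU17 0.82, 0.72 and 0.67. All 4 were highest in MDY483, as was the list median at 0.70, against 0.52 and 0.48 on the arrays of MDY466. Seripauperins made up 18 of the 44 end genes that rose. Of 12 COS genes 6 rose and 2 fell. COS10 and COS9 (-1.42, -1.56 and -1.39) fell far, while COS6 (0.36, 0.33 and 0.35) and COS8 (0.28, 0.21 and 0.25) rose slightly. Members of both families are close in sequence, so their probes can cross-hybridise and the members are not independent.

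Some hexose transporter and vitamin B6 genes with near-identical copies fell far. HXT17, HXT16, HXT15 and HXT13, of the hexose transporter family, were at -2.26 ± 0.17, -2.25 ± 0.14, -2.23 ± 0.15 and -2.09 ± 0.16, and HXT15 for example had -2.37, -2.56 and -1.73. The close relatives HXT9, HXT11 and HXT12, named after their values were seen, were at -0.41, -0.41 and -0.18, and HXT12 did not pass (adjusted p = 0.192). Over the 27 genes of glucose transport and its control 12 rose and 8 fell, and the list median was 0.19. Of 25 genes for vitamin B6 and thiamine 4 rose and 11 fell, the share of higher genes being near that over all genes. SNZ2 and SNZ3, which make vitamin B6, had -1.86, -1.92 and -1.79 and -1.76, -1.64 and -1.59, and their partners SNO2 (-1.69 ± 0.14) and SNO3 (-1.55 ± 0.13) were also low. The near-identical thiamine genes THI5, THI11, THI12 and THI13, named after their values were seen, were at 0.12, 0.27, 0.17 and 0.32, and THI13 passed as higher (adjusted p = 0.0416). SNZ1, the family member of SNZ2 away from the chromosome ends and named after its value was seen, rose to 0.90, 0.85 and 0.86. The pairs SNZ2 with SNZ3, SNO2 with SNO3 and the HXT genes cannot be separated by probes of shared sequence.

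Phosphate-regulated genes were called in both directions. Of 27 such genes 8 fell and 4 rose, against 21% lower and 19.2% higher over all genes, and the list median was 0.00197. The near-identical secreted acid phosphatase genes PHO12 and PHO11 had -1.23, -1.20 and -1.17 and -1.08, -1.26 and -1.08. PHO81, an inhibitor of the phosphate pathway kinase, had -0.89, -0.89 and -0.72, and PHO3 -0.49, -0.93 and -0.88. Of 23 purine synthesis genes 11 fell and 0 rose, with a median of -0.26. ADE17 had -1.10, -0.80 and -0.71, ADE1 -0.69, -0.70 and -0.75, and ADE4 -0.26, -0.43 and -0.38. ADE2 had -0.35, -0.51 and -4.23, so its mean of -1.61 rests on the last of these arrays.

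General stress genes rose as a group. Of 51 genes 39 rose and 1 fell, and the list median was 0.51, 0.59 and 0.52 on the 3 arrays. Besides HSP12, GRE1 had 1.43, 1.12 and 1.07, the phosphoglucomutase gene PGM2 1.05, 1.38 and 1.20, and the small heat shock protein gene HSP42 1.07, 1.14 and 1.08. Of 22 trehalose and glycogen genes 14 rose and 2 fell, among them TPS2 (1.14, 1.24 and 1.46), the glycogen synthase gene GSY1 (0.64, 0.92 and 1.04) and the glucoamylase gene SGA1 (1.06, 1.03 and 0.83). Of 31 chaperone genes 21 rose and 0 fell. The sorting factor BTN2 (0.74, 0.90 and 0.75), the mitochondrial chaperone HSP78 (0.66, 0.87 and 0.85), the HSP70 gene SSA4 (0.85, 0.90 and 0.61) and the disaggregase HSP104 (0.74, 0.77 and 0.86) all rose about as much. The stress, trehalose and chaperone lists share members.

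Parts of the respiration, proteasome and cell wall lists rose, where over all genes 19.2% rose and 21% fell. Of 39 oxidative phosphorylation genes 17 rose and 0 fell, with a median of 0.21. COX5B had 0.53, 0.75 and 0.39, ATP14 0.70, 0.53 and 0.54, and COR1 0.57, 0.52 and 0.50, and the external dehydrogenase gene NDE2 was at 0.43 ± 0.06. Of 27 genes of the tricarboxylic acid and glyoxylate cycles 11 rose and 4 fell, with the malate synthase gene MLS1 at 0.84, 0.85 and 0.77 and ICL2 at -0.52, -0.52 and -0.50. Of 33 proteasome genes 13 rose and 0 fell, and RPN4, the activator of the proteasome genes, had 0.53, 0.52 and 0.53. Of 44 cell wall genes 21 rose and 6 fell. Besides HPF1, CWP1 (0.95, 1.00 and 0.98) and CWP2 (0.67, 0.68 and 0.59) rose, and the transglycosidase gene UTR2 (-0.63, -0.70 and -0.62) fell.

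**Figure D4:**
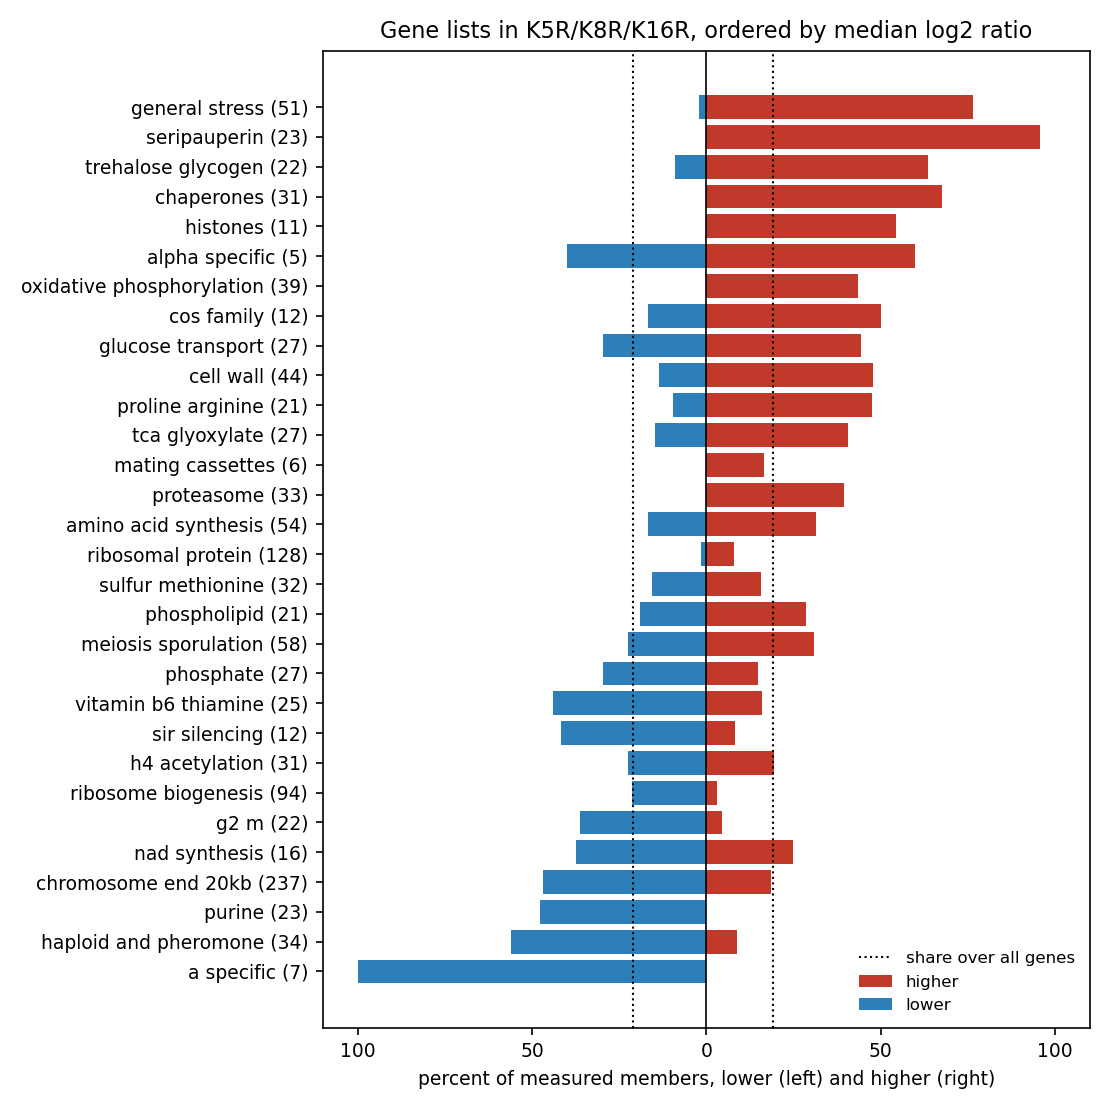
Percent of the measured members of each of 30 gene lists (number of members in brackets) that were lower (left, blue) or higher (right, red) in K5R/K8R/K16R, with lists ordered by their median log2 ratio. Dotted lines mark the shares over all genes, 21% lower and 19.2% higher. The a-specific list has every member lower and the seripauperin list 22 of 23 members higher.

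Amino acid, lipid and NAD lists held genes called in both directions, where over all genes 19.2% rose and 21% fell. Of 21 proline and arginine genes 10 rose and 2 fell. ARG1 had 1.14, 1.12 and 1.30, ARG3 1.17, 1.20 and 1.15, the proline permease gene PUT4 1.04, 1.00 and 1.18, and PUT2 0.73, 0.90 and 0.81. Of 54 other amino acid synthesis genes 17 rose and 9 fell, the share of lower genes being below that over all genes. SER3 of serine synthesis was highest at 1.06, 0.91 and 1.08, and HIS2 was at -0.45, -0.36 and -0.62. Of 32 sulfur and methionine genes 5 rose and 5 fell, below the shares over all genes, with HOM2 at 0.64 ± 0.08 and the activator MET31 at -0.61 ± 0.10. Of 21 phospholipid genes 6 rose and 4 fell, the share of lower genes being near that over all genes, where OPI3 of phosphatidylcholine synthesis (0.69, 0.79 and 0.62) followed INO1 and PAH1 was at -0.25 ± 0.07. Of 16 NAD synthesis genes 4 rose and 6 fell, the share of higher genes being near that over all genes. BNA2, the dioxygenase that opens the pathway from tryptophan, had 1.09, 1.19 and 1.21 and the nicotinamidase PNC1 0.79, 0.92 and 0.59, while the kynureninase BNA5 had -0.84, -0.67 and -0.72.

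Most ribosomal protein and ribosome biogenesis genes did not pass. Of 128 cytosolic ribosomal protein genes 10 rose and 2 fell, shares below those over all genes, with a median of 0.08. RPS4B had 0.38, 0.20 and 0.28 and RPL32 -0.28, -0.40 and -0.39. Of 94 ribosome biogenesis genes 20 fell and 3 rose, near the background for lower genes, with FPR4 lowest of those named at -0.51, -0.47 and -0.46. Of 22 G2/M genes 8 fell and 1 rose. WSC4 had -0.88, -0.50 and -0.65, FRK1 -0.54, -0.65 and -0.48, ALK1 -0.65, -0.49 and -0.52, and CDC20, which activates the anaphase-promoting complex, -0.38, -0.35 and -0.19. Of 58 genes for meiosis and spore formation 18 rose and 13 fell, the share of lower genes being near that over all genes. The list median was 0.03, and its members ran from -0.95 to 1.31. Among those that rose were SPS4 (1.23, 1.02 and 1.02), OSW1 (1.01, 0.86 and 0.96) and the septin gene SPR28 (0.73, 0.78 and 0.85).

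Setting K5R/K8R/K16R against K5R/K8R asks what the loss of lysine 16 adds when lysines 5 and 8 are already lost. The ratios of 450 genes differed (8.12%), 204 higher (3.68%) and 246 lower (4.44%) in K5R/K8R/K16R. The lowest differences were all in mating genes: MFA1 (-3.09 ± 0.25), GPA1 (-3.02 ± 0.13), BAR1 (-2.72 ± 0.17), MFA2 (-2.68 ± 0.20) and STE2 (-2.68 ± 0.15). GPA1 lay between -3.16 and -2.76 in K5R/K8R/K16R and between -0.02 and 0.18 in K5R/K8R. All 7 a-specific genes and 17 of 34 haploid and pheromone genes were lower, and 52 of 237 chromosome end genes were lower against 19 higher. HPF1, with 1.74 to 2.05 in K5R/K8R/K16R and -0.04 to 0.41 in K5R/K8R, had the highest difference (1.61 ± 0.18), followed by PUT1 (1.32), INO1 (1.22), HSP12 (1.20) and YAR068W (1.19). Of the stress genes 20 of 51 and of the seripauperins 17 of 23 were higher and 0 lower by limma. Without MDY483 the count was 263, and within the arrays against MDY453, with 2 arrays a group, it was 70, where PUT1 (1.45, adjusted p = 0.134) and HSP12 (1.21, adjusted p = 0.149) were not called.

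The ratio of K5R/K8R/K16R was also set against the sum of the ratios of K5R/K8R and K16R, which it would equal if the changes added up on the log2 scale. It differed from the sum in 261 genes (4.71%), 141 higher (2.55%) and 120 lower (2.17%). In 187 of them the difference had the same sign as the ratio of K5R/K8R/K16R itself, and in 122 both parts were under 0.25 in size. The ratio of K5R/K8R/K16R enters the difference, so their signs tend to agree in called genes whatever the parts do. Neither count was set against its share over all genes, so no pattern is read from them. The a-specific list had 0 of 7 genes called in either direction, with a median difference of -0.22, and STE2, for example, lay between -2.71 and -2.29 in K5R/K8R/K16R, 0.06 and 0.31 in K5R/K8R, and -2.74 and -2.27 in K16R. AIF1 was far below the sum: it had -2.84, -2.68 and -2.68 in K5R/K8R/K16R, -0.70 to -0.47 in K5R/K8R and -0.53 to -0.41 in K16R (difference -1.65 ± 0.26, adjusted p = 5.64e-05). SDL1 behaved alike, at -2.19, -1.81 and -1.37 in K5R/K8R/K16R, -0.18 to -0.01 in K5R/K8R and -0.24 to -0.08 in K16R (difference -1.58 ± 0.21), and so did YIL168W (-1.35 ± 0.21), which had no match in the reference gene table, and the zinc cluster gene RDS1 (-1.25 ± 0.27). Means of YIL168W ran close to those of SDL1 in these mutants, at -1.85 against -1.79 in K5R/K8R/K16R. Whether their probes read the same locus was not tested.

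COS12 differed in another way, since it was raised in both parts and near 0 in K5R/K8R/K16R. It had -0.33, 0.04 and -0.04 in K5R/K8R/K16R, 0.39 to 0.67 in K5R/K8R and 0.88 to 1.36 in K16R (difference -1.69 ± 0.28, adjusted p = 0.000106). On the higher side, SNZ2 lay between -1.92 and -1.79 in K5R/K8R/K16R, -0.66 and -0.54 in K5R/K8R, and -2.59 and -2.51 in K16R (difference 1.31 ± 0.21). The yapsin protease gene YPS6 (1.29 ± 0.18), the permease gene SEO1 (1.15 ± 0.28) and ZDS1 (1.14 ± 0.32) were also above their sums. PUT1, at 1.30, 1.88 and 1.37 in K5R/K8R/K16R, 0.09 to 0.26 in K5R/K8R and -0.02 to 0.33 in K16R, was higher than both parts together (1.13 ± 0.31), as were INO1 (1.04 ± 0.21) and 15 of the 23 seripauperins. BNA5, near 0 in both K5R/K8R (0.03 ± 0.04, SD, n = 4) and K16R (-0.01 ± 0.09, SD, n = 3), was below its sum (-0.78 ± 0.12). Of 237 chromosome end genes, some of them the same seripauperins, 30 were above and 21 below their sums. Over all genes the shares were 2.55% above and 2.17% below. Of the 219 end genes that are not seripauperins 40 were called in either direction.

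The count of departures from the sum depended on the arrays and on scale. It was 105 without MDY483, 115 without the MDY475 array of K16R, 147 without the array of K5R/K8R marked (s), 0 within the arrays against MDY453 by limma (263 genes at an unadjusted p under 0.05), where K16R has 1 array, and 317 within those against MDY470. With arrays scaled to one spread, it was 1117, and the SD of the log2 ratios before scaling was 0.365 to 0.368 in K5R/K8R/K16R, 0.19 to 0.236 in K5R/K8R and 0.251 to 0.293 in K16R. The differences of AIF1 (-1.53), SDL1 (-1.26), COS12 (-1.54) and SNZ2 (1.28) within the arrays against MDY453 had the direction of the whole set without passing.

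**Figure D5:**
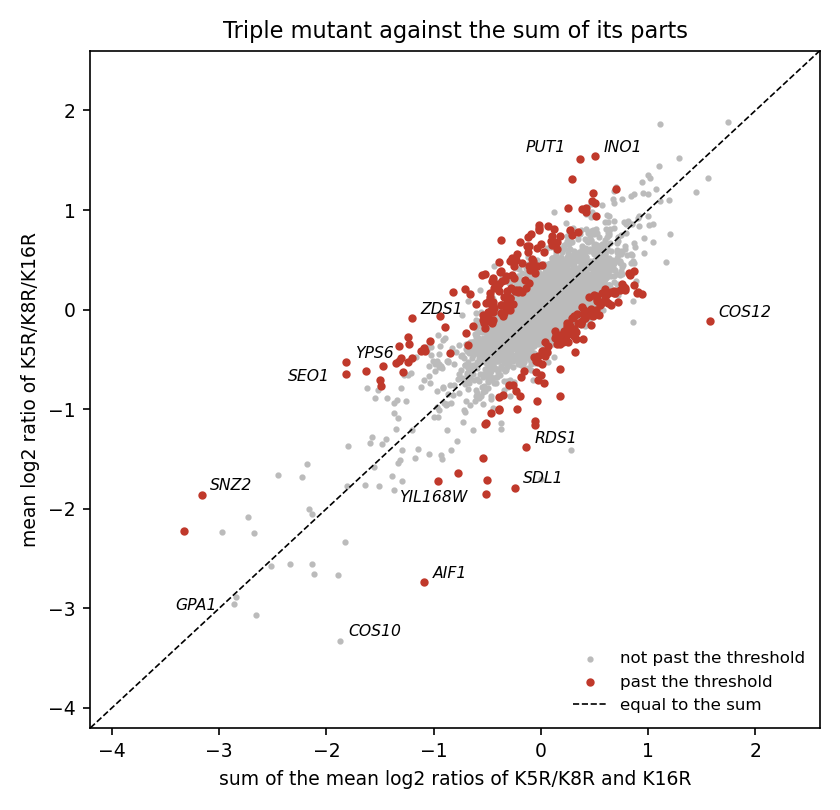
Mean log2 ratio of each gene in K5R/K8R/K16R (y axis) against the sum of its mean log2 ratios in K5R/K8R and K16R (x axis), with the 261 genes that differ from the sum in red and the line of equality dashed. AIF1, SDL1 and COS12 lie below the line, SNZ2, PUT1 and YPS6 above it, and GPA1 on it.

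K5R/K8R/K12R shares K5R and K8R but keeps lysine 16 in place of lysine 12. The ratios of 853 genes differed from it (15.4%), 288 higher (5.2%) and 565 lower (10.2%) in K5R/K8R/K16R. With values as deposited, without centring, the split was 397 higher and 466 lower, and with arrays scaled to one spread it was 75 higher and 280 lower. The mating genes again had the lowest differences, MFA2 (-2.97), MFA1 (-2.96), GPA1 (-2.88), BAR1 (-2.71) and STE2 (-2.51). Stress and seripauperin genes, raised in K5R/K8R/K16R, were lower there than in K5R/K8R/K12R: 30 of 51 stress genes and 22 of 23 seripauperins, with HSP12 at 1.56 to 2.08 in K5R/K8R/K16R and 2.78 to 3.45 in K5R/K8R/K12R. Of 94 ribosome biogenesis genes 35 were higher and 0 lower by limma. PHO81 was higher by 1.09 ± 0.14 (0.58 with arrays scaled to one spread, adjusted p = 0.0159), at -0.89, -0.89 and -0.72 in K5R/K8R/K16R against -2.39 to -1.70 in K5R/K8R/K12R, and PHM6 (1.20), induced by low phosphate, and SPS4 (1.00) were also higher. YPL077C (0.93) and YOL014W (0.93) passed too. The value of YPL077C was 0.31 (adjusted p = 0.082) without the MDY482 array of K5R/K8R/K12R, which stood at -2.59 against -0.66 to -0.31 on the other 4. Neither gene passed with arrays scaled to one spread (0.52, adjusted p = 0.0664, and 0.44, adjusted p = 0.093). The count was 540 without MDY483, 111 within the arrays against MDY453 and 524 between the single arrays against MDY470.

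The fewest genes differed from the mean of the K16R mutants that lost lysine 12 with one other lysine, K5R/K12R/K16R and K8R/K12R/K16R. There were 104 such genes (1.88%), 19 higher (0.343%) and 85 lower (1.53%) in K5R/K8R/K16R. Where those mutants lie on opposite sides of K5R/K8R/K16R, as for STE2 below, the differences from each can cancel in their mean. The count therefore does not measure how close K5R/K8R/K16R is to either of them. The SD of the log2 ratios was 0.365 to 0.368 in K5R/K8R/K16R and 0.389 to 0.475 on the arrays of the other mutants. BNA5 had the highest difference (0.97 ± 0.09, adjusted p = 4.29e-11), at -0.84, -0.67 and -0.72 in K5R/K8R/K16R against -2.16 to -1.95 in K5R/K12R/K16R and -1.53 to -1.25 in K8R/K12R/K16R. YDR541C (0.96), COS12 (0.95), YKL222C (0.73) and IME1 (0.69), the activator of meiosis, were also higher, and COS12 was at -0.33 to 0.04 in K5R/K8R/K16R, -1.34 to -0.94 in K5R/K12R/K16R and -1.21 to -0.63 in K8R/K12R/K16R. The biotin synthase gene BIO2 was lower (-0.75 ± 0.13), at -1.48 to -1.28 in K5R/K8R/K16R, -0.52 to -0.21 in K5R/K12R/K16R and -1.04 to -0.64 in K8R/K12R/K16R. HSP12 (-0.82), TMA10 (-0.75) and ATP1 (-0.69), the alpha subunit of the ATP synthase, were lower as well. The value of ATP1 was -0.43 (adjusted p = 0.0425) without the MDY485 array of K8R/K12R/K16R, which stood at 2.41 against 0.73 to 0.85 on the other 3 arrays of that mutant, and ATP1 was not called without any one of the 3 arrays of K5R/K8R/K16R or the MDY484 array of K5R/K12R/K16R (-0.72 to -0.62, adjusted p from 0.0742 to 0.32). HSP12 was not called without MDY483 (-0.87, adjusted p = 0.0716) or without the third array of K5R/K8R/K16R (-0.68, adjusted p = 0.11). TMA10 was not called without any one of the 3 arrays of K5R/K8R/K16R or of 6 of the 8 arrays of those mutants, with values of -0.83 to -0.68 (adjusted p from 0.0531 to 0.29). In this comparison 15 of 51 stress and 7 of 39 oxidative phosphorylation genes were lower with 0 higher by limma. The difference of ADE2 (-1.38) was -0.20 without the third array of K5R/K8R/K16R, and it was not called without any one of 4 of the 8 other arrays. With strain means, COS12, YKL222C, IME1, HSP12, TMA10, ATP1 and ADE2 were not called (adjusted p from 0.0533 to 0.227). With arrays scaled to one spread the first 6 of these were not called either (adjusted p from 0.0893 to 0.715), and the values fell in size to 0.34 for YKL222C, -0.38 for HSP12 and -0.41 for ATP1, while YDR541C, still called, was at 0.62. With that scaling 13 genes passed, without MDY483 20, without the third array of K5R/K8R/K16R 41, and within the arrays against MDY453 3 (BNA5, COS12 and YDR541C).

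Among a-specific genes MFA2 alone differed from the mean of those mutants by limma (0.68, adjusted p = 0.028), and the mutants lay apart from each other. MFA2 had -2.78 to -2.24 in K5R/K8R/K16R, which overlapped the -2.61 to -2.03 of K8R/K12R/K16R. In K5R/K12R/K16R it had -4.32 to -3.97. STE2 had -2.71 to -2.29 in K5R/K8R/K16R, -3.62 to -3.39 in K5R/K12R/K16R and -2.08 to -1.83 in K8R/K12R/K16R, so that K5R/K8R/K16R stood between the others without overlap, and MFA1 and GPA1 had the same order. The tested difference is against the mean of the other mutants, and each was not tested alone.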

How the data were processed

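The deposited table holds log2 ratios for 6720 probes on 55 arrays. How the authors made them (dyes, direction, background correction, normalization) is not stated by the labels or the file headers, and spot intensities were not used here. Base 2 was inferred from the largest size, 6.64, the log2 of a ratio limit of 100, and depth has no counterpart on arrays, so the number of arrays limits the precision. No array pair correlated below 0 (lowest r 0.00526 over 1431 pairs). The platform annotation names 1 gene for 5570 probes and none for 1150, and 5565 had a match in the reference gene table of assembly R64. Values at the limit (43 in named probes) were treated as missing, probes of a gene were averaged (29 genes) and arrays were centred on their medians, which lay between -0.0713 and 0.0534 as deposited.

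Ratios of 5540 genes entered a limma fit (version 3.58.1, R 4.3.3) with one mean per mutant over 54 samples (technical replicates of one strain averaged, r = 0.927), with the strain as a random block (correlation 0.205), two-sided, Benjamini-Hochberg 0.05. Of these genes 5530 had a value on all 3 arrays of K5R/K8R/K16R, and a gene without one was fitted on the arrays it had. The parental strain has no spread of its own in the test against 0. The comparisons with other mutants share the K5R/K8R/K16R arrays and are contrasts in the same fit. On simulated data with 200 changed genes among 5540 the fit recovered 100% of genes changed by a log2 of 1 and 93% of those changed by 0.5, and 12 of 205 calls (5.85%) were false. The simulated noise was normal with the strain correlation of the fit, without stray arrays such as that of ADE2. It also changed far fewer genes than the 2225 called here. These rates therefore do not measure the false calls in the real data.

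The mutant, the comparisons and the 30 gene lists were chosen with earlier results of these data known. Named genes were the 12 highest and 12 lowest ratios with one sign on all 3 arrays, the 5 highest and 5 lowest differences of each other comparison, up to 4 members per list by the moderated statistic, all a-specific, alpha-specific, cassette and histone genes, and the 6 lowest within 20 kb of a chromosome end. Other named genes are marked in the text as chosen after their values were seen or are given in the order of a chromosome end. Alternatives changed the block, the arrays in the fit, strain means, centring, scaling, limit values, unnamed probes, completeness, the parental set and left out each array of K5R/K8R/K16R. Leaving out each array of the compared mutants, fixed terms for the parental strain and the title suffix, and a looser filter on missing values were added after seeing the data.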

Additional observations from a re-analysis of the deposited data

Results flagged for a closer look

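The effect of K16R differed between the K5R/K8R background and the intact background for 10 genes named for the largest departures, by the limma test of the difference itself. The K16R effect was lower in the K5R/K8R background by these log2 differences: COS12 -1.69, AIF1 -1.65, SDL1 -1.58, YIL168W -1.35 and RDS1 -1.25. It was higher by 1.31 for SNZ2, 1.29 for YPS6, 1.15 for SEO1, 1.14 for ZDS1 and 1.13 for PUT1. SDL1 and YIL168W had similar means in each mutant and may not be independent. Within the arrays against MDY453 none of the 10 was called by limma, YPS6 (1.13, adjusted p = 0.648) in a fit that needed a value only in the compared mutants. ZDS1 was not called without MDY483 (0.95, adjusted p = 0.163) or without any one of 4 of the 7 arrays of K5R/K8R and K16R (1.02 to 1.14, adjusted p from 0.0505 to 0.0839). PUT1 was not called without the array of K5R/K8R/K16R marked (s) (0.97, adjusted p = 0.0777) or without one of 2 K16R arrays (1.03 and 1.17, adjusted p = 0.0662 and 0.06), nor SEO1 without the MDY475 array of K16R (1.07, adjusted p = 0.0538).

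Among 140 sets of arrays of one mutant tested for a value far from the rest, 11 held one. The rate of about 1 in 20 that the test gives by chance holds for independent sets. These sets share arrays, and most are of genes picked for differences between the same mutants, so the count was not compared with that rate. In K8R/K12R/K16R, ATP1 had an array at 2.41 and GPA1 one at -2.67. In K5R/K8R/K12R, YKL222C had -0.86 and YPL077C -2.59. In K5R/K8R, the values apart were HSP12 0.86, PHM6 -0.10, SDL1 -0.18, STE2 0.31, YAR068W -0.41, YKL222C -0.36 and YPL077C -0.50. With 3 arrays each, K5R/K8R/K16R itself and K16R were not tested in this way.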

How the results depend on the processing

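Against the parental strain the count of 2225 genes was 850 within the arrays against MDY453, and the 534 calls over the gene lists were 275 there. Leaving out 1 array of any mutant compared gave 1419 to 1797 genes against parental, 263 to 401 against K5R/K8R, 20 to 109 against the mutants that lost lysine 12 with K16R, 540 to 879 against K5R/K8R/K12R and 105 to 291 against the sum, the lowest of each without MDY483. Against K5R/K8R (450), using only the compared arrays gave 983, strain means 293 and the MDY453 arrays 70. Against the K16R mutants without lysine 12 (104), no strain block gave 185, only the compared arrays 265, strain means 43, scaled arrays 13 and the MDY453 arrays 3. There the MDY470 alternative was not run, because K5R/K12R/K16R has no array against that strain. Against K5R/K8R/K12R (853), scaled arrays gave 355, the MDY453 arrays 111 and the MDY470 arrays 524. Against the sum (261), no strain block gave 521, only the compared arrays 1122, strain means 128, scaled arrays 1117 and the MDY453 arrays 0 by limma (also 0 with a looser filter on missing values), with 263 at an unadjusted p under 0.05. The causes were not tested beyond the fewer arrays that some alternatives hold. The strain block correlation, 0.205 in the main fit, was negative in the fits of only the compared arrays against other mutants. It was -0.166 against K5R/K8R, -0.081 against the K16R mutants without lysine 12 and -0.224 against the sum. Within the arrays against MDY470 it was -0.165. Its effect on these counts was not tested. Among named genes, 3012 values kept their direction and side of the threshold, 127 lost and 7 gained a call, and 9 changed sign, all in genes not past the threshold in the whole set: CSE4 (0.064 with MDY470, -0.11 to 0.039 leaving out 1 array), HHF1 (-0.0065 with MDY470), MATALPHA1 (0.52 with MDY470, -0.83 to 0.61 leaving out 1 array, past the threshold at 0.52, 0.61 and -0.83), PHM6 (-0.0088 with MDY453, -0.0088 to 0.12 leaving out 1 array) and ZDS1 (0.25 with MDY470, -0.26 to 0.0024 leaving out 1 array). No paired analysis was possible because the labels of K5R/K8R/K16R carry no replicate numbers. With the parental strain as a block the counts were 2260, 498, 121, 900 and 306 in the order above, and with the title suffix as a block 2329, 528, 130, 957 and 349, both added after seeing the data.

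The limits are few arrays, 2 of 3 of them of one strain, no intensities to tell weak spots from strong ones, cross-hybridising gene families, and a direction of the ratios that no source states.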
